A study of Mus musculus with 20 samples.

Results

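The unfolded protein response and the integrated stress response were followed through 35 genes in bone marrow endothelial cells of irradiated mice. The genes were taken as a list of names by pathway, drawn up with earlier results of these data known, and all 35 were measured among the 18193 genes of the arrays. By role they comprised 6 regulators and feedback genes of the integrated stress response, 7 amino acid genes driven by the transcription factor ATF4, 4 genes for the stress sensors of the endoplasmic reticulum (ER) and XBP1, 14 ER chaperone and folding genes, and 4 genes of ER-associated degradation. The cells came from adult C57/Bl6 mice aged 8 to 10 weeks and are labelled as VE-cadherin+ endothelial cells of the bone marrow. Single-colour Affymetrix arrays, 5 per group, covered controls that were not irradiated and 3 times after a total body dose of 5 Gy, namely 6 hours, 24 hours and 14 days. Because the dose was given to the whole body, the marrow around these cells was irradiated too. Replicates are labelled as biological, but whether each was 1 animal or a pool is not stated, so p-values measure only the spread between these samples. A gene's level is the linear signal of its brightest probe set (its mean ± SD over 5 arrays), and its change is a difference in log2(signal + 1) ± SE from limma, with p-values adjusted by Benjamini-Hochberg over all 18193 genes. A gene is called changed at an adjusted p under 0.05, and the 3 comparisons with the non-irradiated group share those 5 control arrays.

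The radiation response itself was visible in Cdkn1a, the p53 target that encodes the cell cycle inhibitor p21, which read 943 ± 66.8 without irradiation, 5968 ± 416 at 6 hours, 5017 ± 456 at 24 hours and 1141 ± 66 at day 14. Cdh5, which encodes VE-cadherin, read 3186 ± 494, 8954 ± 1263, 4891 ± 188 and 1293 ± 270.1 in the same order, and none of the 14 pan-endothelial markers was at background throughout a group. Markers of other marrow cells were present as well, and Ptprc, which encodes the pan-leukocyte antigen CD45, read 4785 ± 417, 2722 ± 476, 3811 ± 393 and 2726 ± 182. The summed signal of 10 erythroid markers ran from 55389 to 61379.5 in the non-irradiated group, from 6165 to 9943 at 6 hours, from 2328 to 3120.3 at 24 hours and from 62192 to 73168 at day 14, and Rhag was at background on every 24-hour array. That of 10 granulocyte markers ran from 122664 to 142215, 93486 to 113583, 100787 to 127027 and 90340.1 to 112101 in the same order, so that every 6-hour and day 14 array lay below every control. In such bulk samples fewer cells of a type and less RNA per cell cannot be told apart. Every array had been scaled to the same trimmed mean, whereas its median signal ranged from 167 to 194 in the non-irradiated group and from 87.3 to 109 at day 14. Centring the arrays on their medians moved the median change of all genes by 0.25, 0.38 and 0.90 on the log2 scale at the 3 times, so centred values are given for each member whose change from the controls turned with centring and was called on either scale.

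Unfolded proteins in the ER are sensed by PERK, IRE1 and ATF6. PERK, like the other kinases of the integrated stress response, phosphorylates the initiation factor eIF2, which lowers protein synthesis as a whole while favouring translation of ATF4; ATF4 then induces genes of amino acid synthesis and transport. IRE1 splices the mRNA of XBP1, and XBP1 and the cleaved ATF6 induce chaperones, folding enzymes and degradation factors of the ER. Both branches are known to act in endothelial cells, where they accompany secretory load, amino acid shortage and growth factor signalling. Arrays measure mRNA only: phosphorylation of eIF2, splicing of Xbp1 and cleavage of ATF6 were not measured.

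At 6 hours 13 of the 35 genes were called, 10 higher and 3 lower, against 27.4% of all genes; arrays centred on their medians gave 18 higher and 2 lower. At 24 hours 22 were called, 16 higher and 6 lower, against 29.5% of all genes, and centring gave 22 higher and 3 lower. At day 14 the call fell on 20 genes, 17 higher and 3 lower, against 22.4% of all genes, and centring gave 33 higher and 0 lower. The members' median change was 0.20, 0.30 and 0.23 at the 3 times, beside -0.02, -0.07 and -0.18 over all genes. With centred arrays the median over all genes was 0.23, 0.31 and 0.72. The shares of all genes are for the deposited scaling. Centred counts, here and below, have no matching share beside them and are not to be read against these. The 5 irradiated and 5 control arrays did not overlap in 10 of the 35 genes at 6 hours (15.6% of all genes), 21 at 24 hours (28% of all genes) and 18 at day 14 (23% of all genes). Atf4, Ppp1r15a, Asns, Pdia3, Pdia4 and Manf were called at all 3 times. On the deposited scaling Trib3, Chac1, Atf6, Eif2ak3, Dnajb9, Herpud1 and Syvn1 were called at none. Asns had the deepest fall of the 35 genes at both early times, whereas no ER chaperone gene fell at any time (with quantile normalization Dnajb9 was called lower at day 14).

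**Figure D1:**
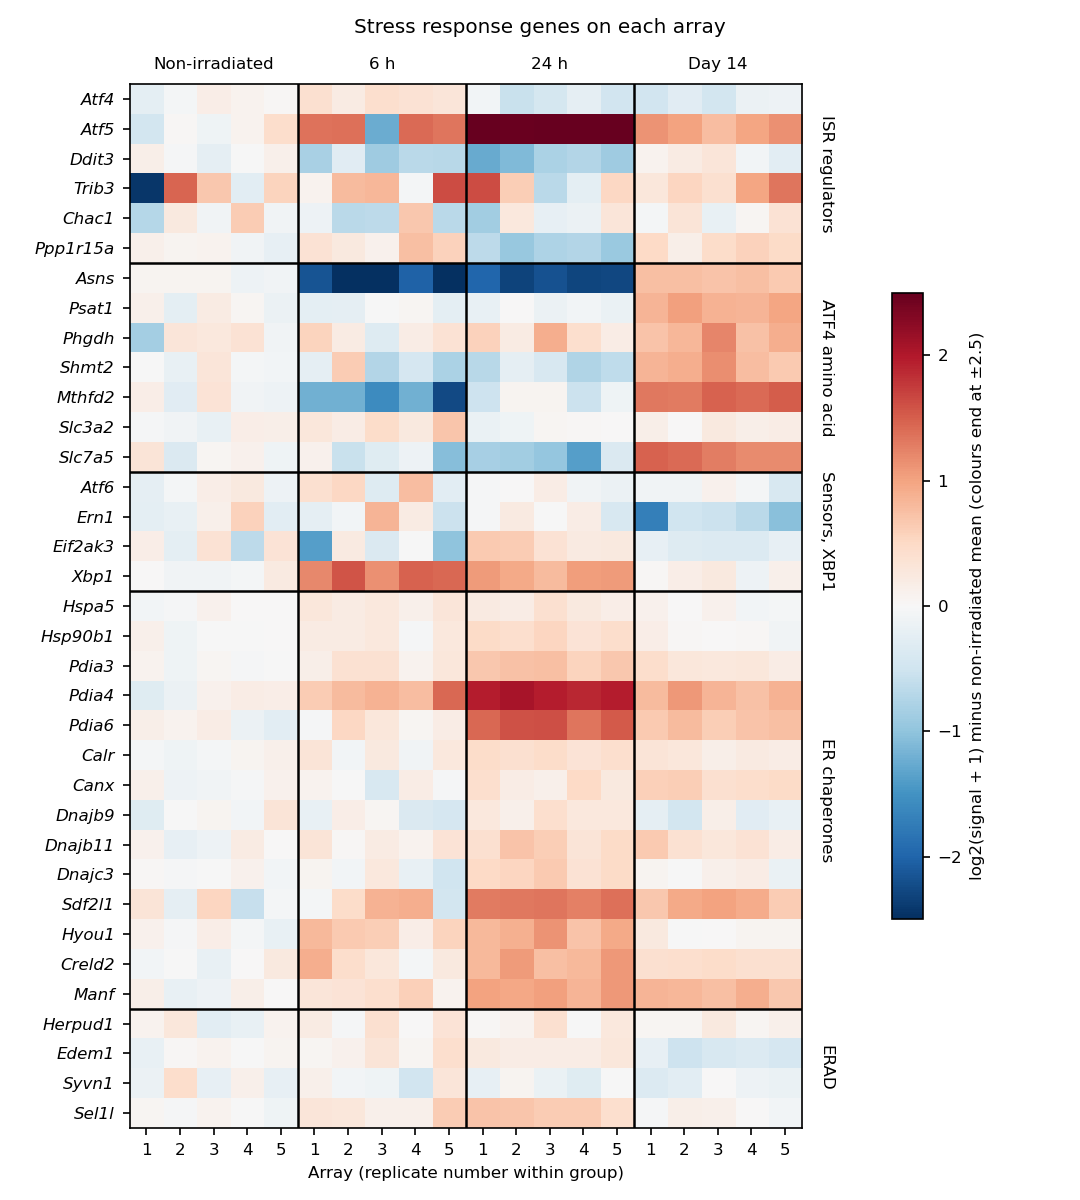
Heat map of the 35 genes (rows, ordered by role; ISR, integrated stress response; ERAD, ER-associated degradation) on the 20 arrays (columns, by group and replicate number); colour is log2(signal + 1) minus the gene's non-irradiated mean. Asns is deep blue on all 6-hour and 24-hour arrays and red on all day 14 arrays, whereas Pdia4 is red on every irradiated array.

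Asns, which encodes asparagine synthetase, changed most among the amino acid genes at 6 and 24 hours. Its 5 non-irradiated arrays read 3424, 3442, 3431, 2981 and 3095 signal units. The 6-hour arrays read 731, 502, 570.4, 809.7 and 478, the 24-hour arrays 823, 658, 721, 662 and 676, and the day 14 arrays 5504, 5484, 5353, 5508 and 5168. Both early groups lay below every control and overlapped each other, and all day 14 arrays lay above every control. The log2 change was -2.43 ± 0.13 at 6 hours (limma adjusted p = 2.69e-13), -2.21 ± 0.13 at 24 hours (adjusted p = 1.35e-12) and 0.72 ± 0.13 at day 14 (adjusted p = 0.000295). The gene's other probe set gave -2.11 ± 0.20, -2.34 ± 0.20 and 0.84 ± 0.20. All 3 calls were kept under all 33 alternatives tried.

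Mthfd2 and Shmt2 encode mitochondrial enzymes that pass one-carbon units from serine to folate. Mthfd2 read 683, 499.7, 768, 573 and 559 without irradiation, 265, 265, 204, 264 and 126 at 6 hours, 423, 635, 635, 421 and 565 at 24 hours and 1512, 1497, 1698, 1623 and 1742 at day 14. Its 6-hour arrays thus lay below every control, 3 of its 24-hour arrays among the controls and the other 2 below them, and its day 14 arrays above them all. The changes were -1.49 ± 0.21 (adjusted p = 3.52e-06), -0.21 ± 0.21 (adjusted p = 0.498) and 1.40 ± 0.21 (adjusted p = 2.53e-05). Shmt2 read 1197 ± 159, 1033 ± 477, 824 ± 133 and 2192 ± 294 in the order of the groups. It fell by 0.54 at 24 hours (adjusted p = 0.0409, called in 20 of 33 alternatives) and rose by 0.87 ± 0.20 at day 14 (adjusted p = 0.00262). A single 6-hour array at 1852 set its 6-hour spread, the other 6-hour arrays reading 1017 or less. Without that array Shmt2 was called lower at 6 hours. So it was with the mean of its 4 probe sets, the most different one, and without sets marked for possible cross-hybridization. Over the 33 alternatives its 6-hour change ran from -0.90 to -0.06. The day 14 call was lost with the most different probe set and with the covariate for RNA quality described below, the lowest change being 0.14.

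Phgdh and Psat1, the first enzymes of serine synthesis from glucose, were not called at either early time. Psat1 read 1733 ± 228, 1576 ± 157 and 1595 ± 94.8 in the control and early groups and 3251 ± 188 at day 14, a rise of 0.92 ± 0.11 (adjusted p = 1.25e-06). The day 14 arrays of Psat1 read 3092 to 3509 and the highest control 1997. Phgdh went from 1974 ± 581 to 2207 ± 458, 2636 ± 566 and 3504 ± 527, with a day 14 rise of 0.88 ± 0.19 (adjusted p = 0.00197). Its 4 probe sets all carry the array's mark for possible cross-hybridization, and the dimmest of them read -0.26 ± 0.30 at day 14. Psat1's dimmer probe set fell by 0.77 ± 0.17 at 6 hours, where the brightest gave -0.13 ± 0.11.

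Slc7a5 and Slc3a2 encode the light and heavy chains of a transporter for large neutral amino acids, and their mRNAs were called at different times. Slc7a5 read 963, 603, 799.9, 833 and 724 without irradiation, 832, 528, 626, 708 and 368 at 6 hours, 435, 423, 398, 298 and 607 at 24 hours and 2168, 2075, 1894, 1752 and 1754 at day 14. Of the 24-hour arrays 4 lay below every control and 1 above only the lowest, and the day 14 arrays lay above every other array. Slc7a5 fell by 0.88 at 24 hours (adjusted p = 0.00154) and rose by 1.31 ± 0.20 at day 14 (adjusted p = 4.96e-05). The 24-hour call was lost when arrays were centred on their medians (-0.50), and with the covariate for RNA quality described below. Slc3a2, by contrast, read 2863 to 4027 at 6 hours, above every control at 2194 to 2792, a rise of 0.37 ± 0.10 (adjusted p = 0.00856). At 24 hours and day 14 Slc3a2 read 2445 ± 163 and 2774 ± 165 against 2515 ± 263, with changes of -0.04 and 0.15 that missed the threshold; with centred arrays the 24-hour change was 0.35 and was called.

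**Figure D2:**
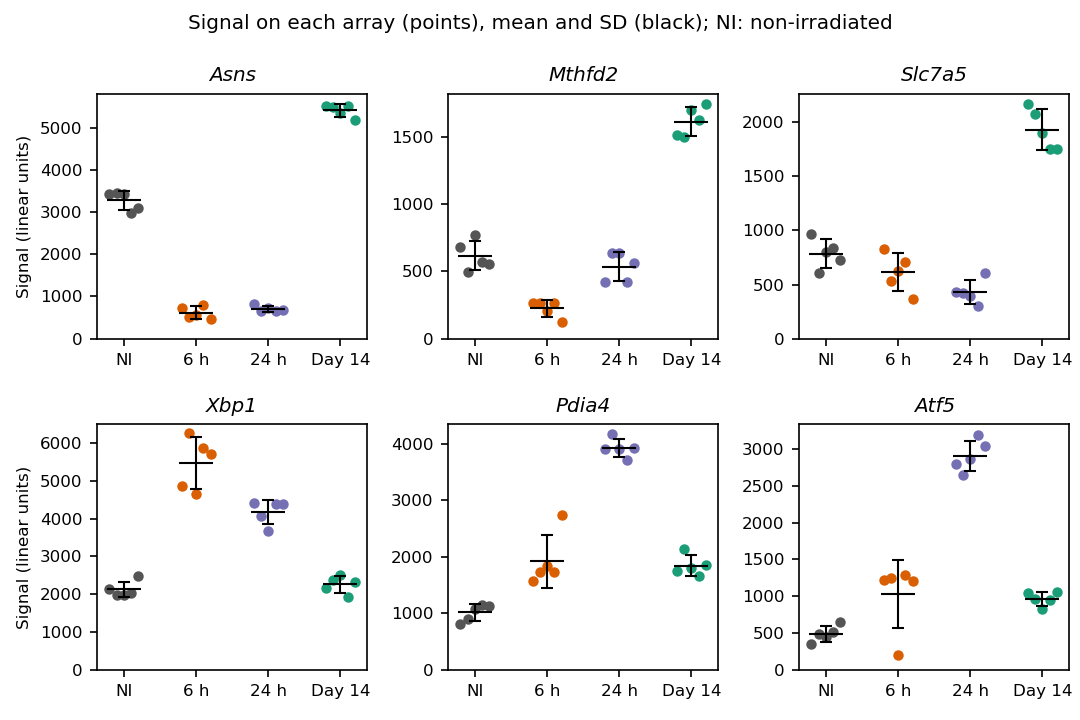
Signal of 6 genes on each array (points; linear units, axes from 0) with the mean and SD of each group in black; NI is the non-irradiated group. Asns and Slc7a5 are highest at day 14, Xbp1 at 6 hours, and Pdia4 and Atf5 at 24 hours, and 1 array of Atf5 at 6 hours reads 202.

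As a group, 1 of the 7 amino acid genes was higher and 2 were lower at 6 hours, 0 and 3 at 24 hours, and 6 and 0 at day 14. Of all genes 12.9%, 15.7% and 9.47% were called higher and 14.5%, 13.8% and 13% lower at the 3 times. On the deposited scaling this is also the background for the related lists. Centring the arrays kept the 6-hour counts, gave 2 higher and 1 lower at 24 hours, and gave 7 higher at day 14. Genes next to them in the pathway, taken from lists named with them, were read the same way. Of 19 aminoacyl-tRNA synthetases of the cytosol, which ATF4 is also known to induce, 1 was higher and 9 were lower at 6 hours, 1 and 5 at 24 hours, and 12 and 0 at day 14; centring gave 2 and 4, 5 and 1, and 19 and 0. Hars, the histidyl-tRNA synthetase, read 6227 ± 341, 3790.3 ± 855, 3269.9 ± 433 and 8357 ± 1026, with changes of -0.75 ± 0.13, -0.94 ± 0.13 and 0.42 ± 0.13. Farsb and Farsa, the 2 chains of the phenylalanyl-tRNA synthetase, fell by 1.46 ± 0.27 and 0.91 ± 0.18 at 6 hours.

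Of 13 genes of the eIF2 machinery (eIF2, its exchange factor, its other kinases, Eif2a and the phosphatase genes Ppp1r15b and Ppp1cc), 0 were higher and 6 lower at 6 hours, 1 and 9 at 24 hours, and 6 and 0 at day 14; centring gave 0 and 1, 1 and 1, and 12 and 0. Eif2ak1 encodes the eIF2 kinase that responds to a lack of heme and is abundant in red cell precursors. It read 2279 ± 119, 1508 ± 415, 1080.4 ± 110.3 and 3593 ± 278, a fall of 1.08 ± 0.14 at 24 hours (adjusted p = 8.44e-07) and a rise of 0.65 ± 0.14 at day 14 (adjusted p = 0.00135). Eif2b3, a subunit of the exchange factor, changed by -0.85 ± 0.21, -0.88 ± 0.21 and 0.81 ± 0.21. Eif2b5, another subunit, rose by 0.72 ± 0.16 at day 14.

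Markers of other cells were read beside the amino acid genes. All 10 erythroid markers were lower at 6 and at 24 hours, with Klf1, a master regulator of red cell genes, at 5693 ± 288, 430.3 ± 174, 134 ± 39.2 and 8352 ± 676, and the summed levels given above were again at or above the control range at day 14. At day 14, 1 of these 10 was called higher and 0 lower. All 7 markers of cycling cells were lower at both early times, and at day 14 4 were higher and 1 was lower. Their summed signal ran from 45352 to 50306 in the non-irradiated group, 16334 to 20445 at 6 hours, 14400.0 to 15826 at 24 hours and 47405 to 58784 at day 14, and Mki67 among them read 18052 ± 367, 8867 ± 844, 5186 ± 466 and 14009 ± 1377. The part of these cells in the amino acid genes' changes was not tested.

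Atf4 mRNA read differently on its probe sets. On its brightest probe set the controls read 6323, 7224, 8368, 7905 and 7617, the 6-hour arrays 9895, 8614, 10034, 9513 and 9230.5, the 24-hour arrays 7152, 5068, 5522, 6374 and 5360.2 and the day 14 arrays 5371, 6091, 5387, 6709.9 and 6790.3. The changes of 0.34 ± 0.10, -0.35 ± 0.10 and -0.30 ± 0.10 were all called (adjusted p = 0.0084, 0.00648 and 0.0247). That probe set carries the array's mark for possible cross-hybridization, and the second brightest, which does not, read 0.34 ± 0.08, 0.21 ± 0.08 and 0.34 ± 0.08. Only the 6-hour rise had 1 direction in both, and the falls at 24 hours and day 14 also turned positive when arrays were centred (0.03 and 0.60).

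Atf5, a transcription factor that, like ATF4, is favoured in translation when eIF2 is phosphorylated, rose most among the 35 genes at 24 hours. The controls read 346, 491, 447, 511 and 649.6, the 6-hour arrays 1227, 1245, 202, 1286 and 1207, the 24-hour arrays 2802, 2655, 2864, 3188 and 3042 and the day 14 arrays 1041, 963, 819, 949 and 1059.6. Its rise was 2.60 ± 0.33 at 24 hours, a 6.05-fold difference on the log2(signal + 1) scale (adjusted p = 6.86e-07), and 1.00 ± 0.33 at day 14 (adjusted p = 0.0298). At 6 hours 1 array lay below every control and 4 lay above every control; the change of 0.85 ± 0.33 missed the threshold (adjusted p = 0.058) and was 1.37, past the threshold, without that array. With the 3' minus 5' signal of Gapdh as a covariate, a measure of RNA quality that differed between the groups, the 24-hour call was lost and the day 14 change turned to -0.32. The low 6-hour array of Atf5 also had the largest such value, 2.03 against 1.26 to 1.64 on the other 6-hour arrays. Controls at 1.27 to 1.36 did not overlap the 24-hour arrays at 0.72 to 0.86 or the day 14 arrays at 0.75 to 1.04. Covariate and group can thus hardly be told apart, and the part of that 1 array in the lost call was not tested.

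Ddit3 and Ppp1r15a are both induced downstream of ATF4, and both read lower at 24 hours. Ddit3, which encodes the proapoptotic factor CHOP, read 1242, 1097, 954, 1115 and 1222 in the controls, 638, 925, 607, 699 and 692 at 6 hours, 465, 522, 645, 675 and 603 at 24 hours and 1187, 1301, 1376, 1075 and 928 at day 14. No array of either early group reached the lowest control, a fall of 0.67 ± 0.16 at 6 hours (adjusted p = 0.00212) and of 0.96 ± 0.16 at 24 hours (adjusted p = 3.42e-05), whereas the day 14 arrays spanned the controls. The dimmer probe set of Ddit3 also fell early (-0.94 ± 0.22 and -2.04 ± 0.22) but read -1.43 ± 0.22 at day 14, where the brighter gave 0.05 ± 0.16.

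Ppp1r15a encodes the subunit that directs a phosphatase to eIF2 and so ends the stress signal. It read 1337, 1284, 1302, 1150.4 and 1057 in the controls, 1571, 1437, 1319, 2045 and 1810.3 at 6 hours, 773, 632, 719.6, 739 and 637 at 24 hours and 1723, 1348, 1682, 1819 and 1695 at day 14. The gene was thus high, low and high again: 0.40 ± 0.14 at 6 hours (adjusted p = 0.0286), -0.81 ± 0.14 at 24 hours (adjusted p = 4.53e-05) and 0.43 ± 0.14 at day 14 (adjusted p = 0.0261). The fall held under all 33 alternatives, while the rise was lost under 7 at 6 hours and under 8 at day 14. Trib3, a pseudokinase that restrains ATF4, and Chac1, an enzyme that degrades glutathione, were dim at group means of 147 to 186 and 117 to 144, and 1 control array of Trib3 lay at background. Their changes ran from -0.29 to 0.71 with none called. With centred arrays both were called higher at day 14 (1.61 and 1.00).

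Among 22 other known ATF4 targets, 9 were higher and 4 lower at 6 hours, 7 and 4 at 24 hours, and 5 and 2 at day 14; centring gave 10 and 3, 9 and 2, and 14 and 1. Sesn2, a stress-induced inhibitor of the growth kinase mTORC1 that is also a p53 target, read 293 ± 93.5, 1074 ± 318, 888 ± 82.2 and 397 ± 109, a rise of 1.88 ± 0.24 at 6 hours (adjusted p = 7.86e-07) and of 1.65 ± 0.24 at 24 hours (adjusted p = 4.51e-06). Slc7a11 and Stc2, the other 2 named by their size of change, were called lower once each, at 6 hours and at day 14, from control means of 72.7 and 95, with 3 and 2 of the 5 arrays at background.

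On the ER side, Xbp1 was called higher at 6 hours, the first time sampled, as were 6 of the 14 chaperone genes. Its controls read 2139, 1983, 1987, 2038 and 2472, its 6-hour arrays 4859, 6278, 4648, 5876 and 5709, its 24-hour arrays 4404, 4068, 3671, 4383 and 4401 and its day 14 arrays 2157, 2387, 2509, 1936 and 2323. On the deposited scaling every 6-hour array lay above every 24-hour array, every 24-hour array above every control, and the day 14 arrays overlapped the controls. With centred arrays the day 14 change of Xbp1 was 0.99 and was called. The rise was 1.36 ± 0.10 at 6 hours (a 2.57-fold difference, adjusted p = 1.35e-10) and 0.98 ± 0.10 at 24 hours (adjusted p = 3.29e-08), and both held under all 33 alternatives. Its 4 probe sets rose by 1.32 to 1.45 at 6 hours and by 0.98 to 1.49 at 24 hours, and the step down from 6 to 24 hours (-0.38 ± 0.10, adjusted p = 0.00773) was seen in the brightest but not in all of them (-0.38 to 0.05). The probe sets were not assigned to the spliced or unspliced mRNA.

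Of the mRNAs of the 3 sensors, 1 was called against the controls at 1 time on the brightest probe sets. At 24 hours Ern1 was called lower with the mean of its 5 probe sets and with the most different one. Atf6 was called higher then with its most different one (0.49). Eif2ak3 was called lower at day 14 with the mean of its 3 probe sets. The values that follow are of the brightest probe sets. Atf6 read 1396 ± 193, 1689 ± 544, 1376 ± 123 and 1301 ± 156 and was called at no time, though with centred arrays its day 14 change was 0.80 and was called. Eif2ak3, which encodes PERK, went from 393 ± 108 to 289.7 ± 125, 515 ± 75.6 and 313 ± 14.9. No comparison with the controls was called, though with centred arrays the 24-hour rise was. Eif2ak3 at 24 hours exceeded 6 hours by 0.94 ± 0.27 (adjusted p = 0.0123). Ern1, which encodes IRE1, fell by 0.89 ± 0.26 at day 14 (adjusted p = 0.0169), its day 14 arrays at 157 to 370.4 lying below all controls at 433 to 773, but with centred arrays its change was 0.01. Of 11 related ER stress genes the higher and lower calls numbered 4 and 1 at 6 hours, 5 and 1 at 24 hours, and 0 and 0 at day 14, and centring gave 5 and 0, 8 and 1, and 9 and 0. Creb3l1, a membrane-bound transcription factor processed like ATF6, read 838 ± 96.8, 2539 ± 641, 2798 ± 146 and 1087 ± 74.7 (a rise of 1.74 ± 0.14 at 24 hours), its relative Creb3l2 rose by 1.12 ± 0.19, and Wfs1, the ER membrane protein wolframin, by 1.59 ± 0.28.

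The ER chaperone and folding genes rose together at 24 hours. Of the 14 genes 6 were higher at 6 hours, 13 at 24 hours and 9 at day 14, and none was lower. At 6 hours the call of Hsp90b1 (limma adjusted p = 0.0475) was lost in 21 of 33 alternatives. The 3' minus 5' signal as a covariate lost the 6-hour calls of Hsp90b1, Pdia3 and Manf. Centring the arrays gave 10, 14 and 14 higher, and quantile normalization gave 4, 12 and 5 higher with Dnajb9 lower at day 14. At day 14 Hspa5, Hsp90b1, Hyou1 and Dnajc3 were uncalled on the deposited scaling and called at 0.92 to 0.97 with centred arrays. The median change of the 14 genes on the deposited scaling was 0.22, 0.59 and 0.33. Among all genes 12.9% were called higher at 6 hours, 15.7% at 24 hours and 9.47% at day 14.

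The promoters of several of these genes carry a known element, shown here because its letters were found mostly on the chaperone side of the list. Promoter sequence from RefSeq (build GRCm38.p6, 250 bases before the start) was found for 31 of the 35 genes, in 33 windows. The ER stress response element, read as CCAAT and CCACG with any 9 bases between them, was searched on both strands. It occurred in 7 of 12 chaperone and folding genes (Calr, Canx, Creld2, Dnajc3, Hsp90b1, Hspa5 and Pdia6), in Syvn1 of the degradation genes, and in none of 6 amino acid genes, against 0.105% of the 18109 windows of genes on the array. In the stretches that follow, read 5′ to 3′ on the strand of the gene, capitals mark the fixed letters of the element, which appears as CGTGG and ATTGG where it lies on the opposite strand. Hsp90b1 has the element at 2 places, and the one nearer to its start is shown.
Hspa5 (chr2:34771980-34772074, plus strand): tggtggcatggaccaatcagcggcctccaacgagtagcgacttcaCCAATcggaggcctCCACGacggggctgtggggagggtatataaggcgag
Pdia6 (chr12:17266459-17266528, plus strand): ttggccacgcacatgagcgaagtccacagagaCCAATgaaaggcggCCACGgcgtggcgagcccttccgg
Creld2 (chr15:88819496-88819560, plus strand): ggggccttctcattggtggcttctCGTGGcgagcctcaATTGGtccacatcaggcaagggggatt
Hsp90b1 (chr10:86705515-86705574, minus strand): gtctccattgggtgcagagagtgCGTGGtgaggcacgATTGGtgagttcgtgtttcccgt
Calr (chr8:84847052-84847121, minus strand): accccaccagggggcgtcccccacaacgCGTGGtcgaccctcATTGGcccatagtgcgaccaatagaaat
Syvn1 (chr19:6046506-6046570, plus strand): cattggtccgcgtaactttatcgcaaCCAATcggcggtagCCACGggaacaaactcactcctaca
Of the 8 members with the element 7 were higher at 24 hours, beside 15.7% of all genes, with a median change of 0.43, and Syvn1 read -0.12. Those 7 are all chaperone or folding genes, and of the 14 genes of that role 13 were higher at 24 hours. Of the 11 other genes on the array with the element, 0 were higher and 1 was lower at 24 hours, with a median change of -0.01. Some of these 11 lay near or below background. At 24 hours 4930402F11Rik, Tdrd9, Acnat2 and Ptgdr2 averaged 4.5, 6.2, 14 and 18.4 signal units, with SEs of 0.50 to 0.73 for the change. For genes so dim a missing call says little, so these counts are not a like comparison with the brighter members. Pdia4 and Sdf2l1, which are among the 3 chaperone genes with the largest rises at 24 hours, had windows without these letters. So had Pdia3 and Dnajb11, which were called higher at 24 hours too, and Dnajb9, which was not. A match of letters is a description, and where none was found nothing follows for the factors.

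The amino acid response element, TGATGNAA, the core of sites that ATF4 is known to bind with C/EBP partners, was found in Asns, Chac1 and Herpud1 and in 2.39% of the windows of genes on the array. The related element ERSE-II, read as ATTGG and CCACG with any 1 base between them, was found in Herpud1 alone of the 31 genes and in 0.039% of the same windows. The 3 windows are shown because the genes holding them behaved differently on the deposited scaling: Asns moved in both directions, and Chac1 and Herpud1 were called at no time. With centred arrays Herpud1 was called higher at all 3 times and Chac1 at day 14. Capitals mark the fixed letters of TGATGNAA, shown as its reverse complement in Chac1 and Herpud1, and in Herpud1 also those of ERSE-II.
Asns (chr6:7693210-7693269, minus strand): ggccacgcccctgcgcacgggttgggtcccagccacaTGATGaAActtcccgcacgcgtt
Chac1 (chr2:119351022-119351081, plus strand): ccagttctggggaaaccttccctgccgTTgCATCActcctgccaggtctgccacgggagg
Herpud1 (chr8:94386299-94386403, plus strand): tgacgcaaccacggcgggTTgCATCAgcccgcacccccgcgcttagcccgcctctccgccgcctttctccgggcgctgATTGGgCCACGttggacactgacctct
The match in Asns lies 23 to 16 bases before its start. A further letter string, TGACGTGG, the core of the unfolded protein response element, was in none of the 33 windows and in 0.801% of the windows of genes on the array.

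Pdia4, a protein disulfide isomerase, showed the chaperone pattern at its largest. Its controls read 816, 901, 1079, 1147 and 1121, its 6-hour arrays 1568, 1733, 1835, 1723 and 2735, its 24-hour arrays 3901, 4175, 3909, 3721 and 3920.5 and its day 14 arrays 1740.5, 2143, 1801, 1666 and 1845. All irradiated arrays lay above every control, and the 24-hour arrays above all others. The rises were 0.90 ± 0.13, 1.97 ± 0.13 and 0.87 ± 0.13 (adjusted p = 9.06e-06, 1.53e-11 and 4.64e-05), a 3.9-fold difference at 24 hours. The gene's second probe set, near background at a mean of 19.8, showed no call.

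Pdia6, another disulfide isomerase, stayed near the controls at 6 hours and rose later. It read 1141, 1089, 1162, 932 and 852 in the controls, 1011, 1482, 1253, 1067 and 1171 at 6 hours, 2797, 3103, 3153, 2614 and 2985 at 24 hours and 1612, 1787, 1573, 1686 and 1728 at day 14. The 6-hour arrays overlapped the controls (0.21 ± 0.12, adjusted p = 0.243), and the 24-hour and day 14 arrays did not (1.51 ± 0.12 and 0.70 ± 0.12, adjusted p = 4.49e-10 and 0.0002). Pdia3, the isomerase that works with the lectin chaperones, read 5063 ± 283, 6052 ± 544, 8077 ± 399.7 and 6191 ± 392, with rises of 0.25, 0.67 and 0.29 that were all called. A dim second probe set of Pdia3 fell by 1.01 ± 0.35 at 6 hours.

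Manf, a secreted ER stress protein, rose at all 3 times, from 2027 ± 214 to 2585 ± 333, 4009 ± 238 and 3534 ± 229. Its changes were 0.35 ± 0.10, 0.99 ± 0.10 and 0.81 ± 0.10, and the later 2 were kept in all alternatives. Sdf2l1, a partner of ER chaperone complexes, read 1673, 1695, 1697, 1613 and 1754 at 24 hours against 453 to 976 in the controls, a rise of 1.32 ± 0.22 (adjusted p = 3.69e-05), and was still 0.84 ± 0.22 higher at day 14 (adjusted p = 0.00798). Creld2, an ER-resident stress protein, rose by 0.91 ± 0.14 at 24 hours and Hyou1, an exchange factor for the chaperone BiP, by 0.90 ± 0.11. At day 14 Creld2 was called at 0.42 ± 0.14 and Hyou1 read 0.08 ± 0.11, its day 14 arrays at 2425 to 2915 overlapping the controls at 2151 to 2759.8.

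Hspa5, Hsp90b1, Calr and Canx had the smallest called changes of the chaperones at 24 hours. Hspa5, which encodes BiP, the central chaperone and brake on the sensors, read 8341, 8602, 9424, 8803 and 8802 in the controls, 10626, 10154, 10554, 9550.2 and 10807 at 6 hours, 10301, 10001, 11568, 10341 and 9896 at 24 hours and 9456, 8841, 9470.1, 8406 and 8461 at day 14. Every array of both early groups lay above every control, by a change of 0.23 ± 0.06 and 0.24 ± 0.06 (adjusted p = 0.00564 and 0.00362), and day 14 overlapped the controls at 0.02. The 24-hour call rests on that probe set, since the next brightest read 0.07 ± 0.07 then. Hsp90b1 (the ER form of HSP90) rose by 0.44 ± 0.07 and Calr (calreticulin) by 0.42 ± 0.08 at 24 hours from control means of 8358 and 7003. Canx, the membrane-bound lectin calnexin, had its highest mean at day 14: its change was -0.03 at 6 hours, 0.30 at 24 hours and 0.50 ± 0.10 at day 14 (adjusted p = 0.000863), with a day 14 mean of 5383 ± 351, though the day 14 and 24-hour arrays overlapped (0.20, adjusted p = 0.123).

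The J-domain cochaperones, which stimulate BiP, were called at different times. Dnajb11 rose by 0.50 ± 0.10 at 24 hours and 0.37 ± 0.10 at day 14, and Dnajc3 by 0.51 ± 0.11 at 24 hours with 0.04 at day 14. Dnajb9, a known target of spliced XBP1, read 2800.0 ± 439, 2530.0 ± 443, 3345 ± 250.4 and 2438 ± 395 and was the 1 gene of the 14 called at no time against the controls. At day 14 it was called higher with centred arrays (0.70) and lower with quantile normalization (-0.40). It did exceed its 6-hour level at 24 hours, by 0.42 ± 0.13 (adjusted p = 0.0203).

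**Figure D3:**
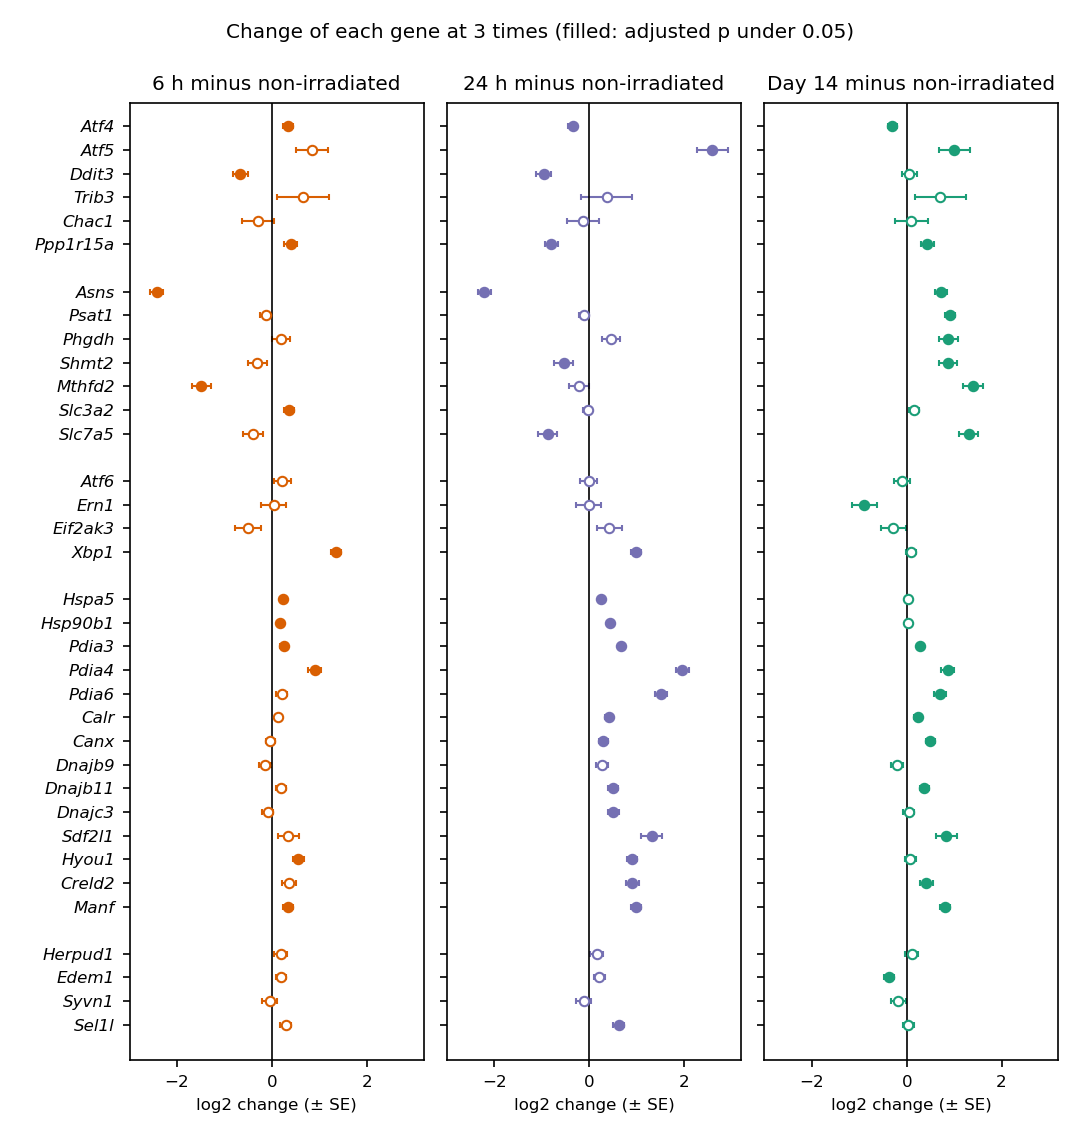
Log2 change ± SE of each of the 35 genes (rows, grouped by role in the order of the heat map) at 6 hours, 24 hours and day 14 against the non-irradiated group; filled points have a limma adjusted p under 0.05. The chaperone block sits right of 0 at 24 hours, from 0.24 for Hspa5 to 1.97 for Pdia4, and Asns sits farthest left at 6 and 24 hours.

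The genes of ER-associated degradation, which carry misfolded proteins out of the ER, mostly stayed in the control range on the deposited scaling. Herpud1 read 998 ± 154, 1132 ± 152, 1107 ± 134 and 1064 ± 64.4, with changes of at most 0.18. With centred arrays its changes were 0.43, 0.54 and 1.00 and were called. Syvn1, the membrane ubiquitin ligase, read 966 ± 200.2, 935 ± 185, 877 ± 89.1 and 843 ± 78.6, and with centred arrays its day 14 change was 0.72 and was called. Sel1l, the ligase's adaptor, rose from 1488 ± 73.9 to 2287 ± 179.7 at 24 hours (0.62 ± 0.11, adjusted p = 0.000104), a call lost with the 3' minus 5' signal as a covariate. Edem1, which selects misfolded glycoproteins, fell by 0.38 ± 0.11 at day 14 (adjusted p = 0.0163), a direction that turned with centred arrays (0.52).

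Other genes of the ER were read from lists in the same way. Of 22 other ER folding and glycosylation genes, 3 rose and 6 fell at 6 hours, 14 and 0 at 24 hours, and 11 and 0 at day 14; centring gave 7 and 1, 19 and 0, and 21 and 0. Pdia5, a further disulfide isomerase, read 259 ± 90.7, 628 ± 335, 1149 ± 149.6 and 464 ± 88.4, a rise of 2.21 ± 0.30 at 24 hours (adjusted p = 1.51e-06). Fkbp11, an ER prolyl isomerase, rose by 1.78 ± 0.29 at 24 hours, and Txndc11 by 1.43 ± 0.29 at 6 hours. Of 18 genes for the translocon and signal peptidase, through which new proteins enter the ER, 3 were higher and 4 lower at 6 hours, 10 and 1 at 24 hours, and 11 and 0 at day 14; centring gave 6 and 1, 15 and 0, and 18 and 0. Ssr2 and Ssr4, of the complex that adjoins the translocon, rose by 1.11 ± 0.13 and 0.84 ± 0.13 at 24 hours, and Srprb, of the receptor that docks ribosomes, by 0.74 ± 0.16. Of 17 other degradation genes the higher and lower calls numbered 3 and 2 at 6 hours, 5 and 1 at 24 hours, and 6 and 0 at day 14; centring gave 4 and 0, 10 and 0, and 16 and 0. The 6-hour counts of the degradation list are near the 12.9% higher and 14.5% lower of all genes. Selenos, a membrane selenoprotein of that pathway, went from 1753 ± 249 to 4322 ± 345 at 24 hours (1.31 ± 0.12, adjusted p = 5.7e-09), with Erlec1 at 0.78 ± 0.15 and Derl2 at 0.72 ± 0.12.

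Markers of other cell types were read beside the chaperones. Of 10 plasma cell markers, Xbp1 is a member here, and Fkbp11, Txndc5 and Derl3 stand in related lists. The summed signal of the 10 ran from 7609 to 8518 in the non-irradiated group, 12954 to 15589 at 6 hours, 14814 to 17077 at 24 hours and 8598 to 10135 at day 14. The 6 identity genes among them, set apart after the data were seen, summed to medians of 4381, 7392, 7129 and 5237. At 6 hours Jchain had a median of 3115 against 1998 in the controls and Sdc1 one of 3474 against 2003, both without overlap of the arrays, and Mzb1 one of 215 against 127. Irf4 had a median of 108 against 88.8 and Prdm1 one of 124 against 133, and Tnfrsf17 lay at background on 4 of the 5 arrays. At 24 hours Sdc1, which is not confined to plasma cells, made up most of the identity genes' sum at a median of 4962 against 2003 in the controls. Jchain read 2112 against 1998, Mzb1 118 against 127, Prdm1 59.2 against 133 and Irf4 54.9 against 88.8, and Tnfrsf17 lay at background on 3 of 5 arrays at 24 hours and 4 of 5 controls. The summed signal of 6 megakaryocyte markers ran from 10314 to 11466 in the controls, 26794 to 35406 at 6 hours (5 of 6 called higher), 14871 to 16271 at 24 hours (4 of 6 higher) and 8507 to 9801 at day 14 (4 of 6 lower). The summed osteoblast and stromal markers ran from 96991 to 105487 in the controls and 112198 to 136166 at 6 hours (6 of 9 called higher). They ran from 90087 to 113430.0 at 24 hours (4 higher, 3 lower) and 72372 to 89324 at day 14 (1 higher, 4 lower). Every 6-hour array thus lay above every control, and every day 14 array below. The 14 pan-endothelial markers summed to 18249 to 20139.6 in the controls, 47977 to 55829.6 at 6 hours, 25965 to 27590.2 at 24 hours and 9202 to 10253 at day 14, highest at 6 hours as Xbp1 was, whereas the mean of the chaperones, on the deposited scaling, was highest at 24 hours. The part of these cells in the changes of Xbp1 and the chaperones was not tested.

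The irradiated groups were also compared directly, in 2 comparisons that share the 24-hour arrays. From 6 to 24 hours 21 of the 35 genes were called, 17 higher and 4 lower, against 23.8% of all genes. Of these, 13 were chaperone or folding genes, all higher (13.7% of all genes were called higher), led by Pdia6 at 1.30 ± 0.12 and Pdia4 at 1.06 ± 0.13, and Hspa5 was the exception at 0.01 ± 0.06. Of the amino acid genes Mthfd2 rose by 1.28 ± 0.21 and Slc3a2 fell by 0.41 ± 0.10. Atf5 rose by 1.75 ± 0.33, a change that turned to -0.71 with the 3' minus 5' signal as a covariate, while Ppp1r15a and Atf4 fell by 1.21 ± 0.14 and 0.69 ± 0.10 (10.1% of all genes were called lower). With the 3' minus 5' signal as a covariate the count of called genes was 8 in place of 21, of them 5 chaperone genes higher. That signal of Gapdh, where a larger value means more loss towards the 5' end, averaged 1.33 in the controls, 1.58 at 6 hours, 0.774 at 24 hours and 0.894 at day 14, and beyond that covariate its part in the changes was not tested. In it every 24-hour array lay below every control and every 6-hour array, so covariate and group can hardly be told apart there.

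From 24 hours to day 14, 22 genes were called, 7 higher and 15 lower, against 36.9% of all genes, and centring gave 17 higher and 3 lower. Asns rose by 2.93 ± 0.13 (a 7.64-fold difference, adjusted p = 4.7e-15), Slc7a5 by 2.19 ± 0.20, Mthfd2 by 1.61 ± 0.21, Shmt2 by 1.41 ± 0.20 and Psat1 by 1.03 ± 0.11. These 5 of the 7 amino acid genes were kept in all 33 alternatives. The chaperones went the other way on the scaled values, with 9 of 14 lower (21.7% of all genes), but this direction depends on the scaling: centred arrays gave 5 higher and 1 lower, Pdia4. Xbp1 fell by 0.89 ± 0.10 and Atf5 by 1.59 ± 0.33 in the same interval, while Ddit3 and Ppp1r15a rose by 1.01 ± 0.16 and 1.24 ± 0.14, and these 4 were kept in all alternatives.

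**Figure D4:**
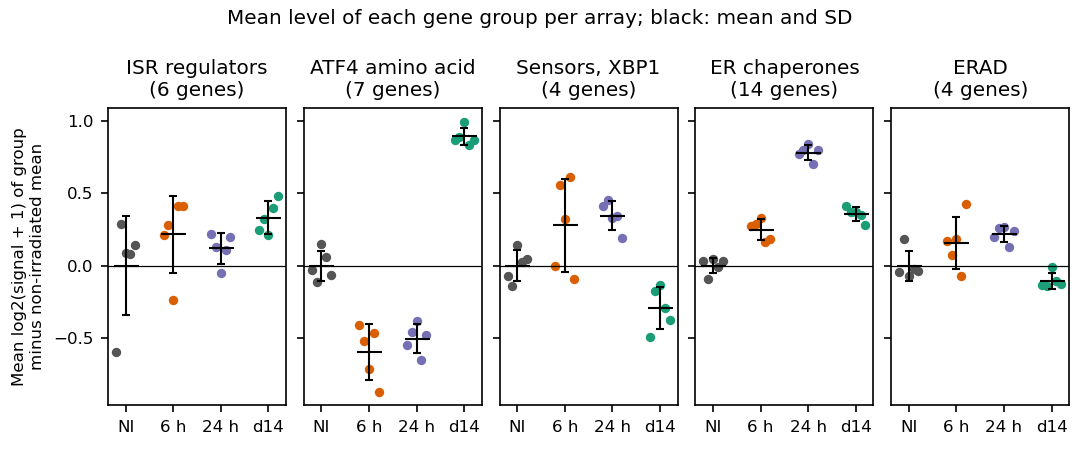
Mean log2(signal + 1) of each role's genes on each array, minus the mean of the non-irradiated arrays (points; group mean and SD in black; NI, non-irradiated; d14, day 14). The amino acid genes lie between -0.87 and -0.38 on the 6-hour and 24-hour arrays and between 0.84 and 1.00 at day 14, and the chaperones are highest at 24 hours on the deposited scaling, between 0.70 and 0.84, an order that centring the arrays on their medians turned against day 14 for most of these genes.

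Set side by side on the same arrays and on the deposited scaling, the mean of the 7 amino acid genes relative to the controls was -0.60 ± 0.19 at 6 hours, -0.50 ± 0.10 at 24 hours and 0.89 ± 0.06 at day 14 (SD over 5 arrays). Over the 7 genes the median changes were -0.30, -0.21 and 0.88: Asns and Mthfd2 hold most of the 6-hour mean and Asns most of the 24-hour mean. The mean of the 14 chaperone and folding genes was 0.25 ± 0.07, 0.78 ± 0.05 and 0.36 ± 0.05. Every 6-hour and 24-hour array thus had the mean of the amino acid genes below its control level and that of the chaperones above, and every day 14 array had both above. The means of the regulators, the sensors and the degradation genes lay between -0.30 and 0.35 in the irradiated groups.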

How the data were processed

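RNA from 20 samples was measured on single-colour Affymetrix arrays of 45101 probe sets, extracted with a Qiagen kit and amplified with a Nugen kit, per the labels' protocols. The tools were Transcriptome Analysis Console and Affymetrix Expression Console, per the submitters' processing notes; the summarization algorithm is not given in the sources used here. The deposited values are a linear intensity per probe set, scaled by the authors so that the mean of each array, trimmed by 2% at each end, is 500. That trimmed mean was computed from the files.

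Each value was taken as log2(signal + 1). Of the probe sets, 34958 have 1 gene symbol in the platform annotation and 932 several; a gene was read from its probe set with the highest mean log2 signal, which gave 18193 genes. Of the symbols, 34754 were matched by gene number. The 4 groups were fitted together with limma 3.58.1 in R 4.3.3 (lmFit, eBayes with an intensity trend), and 5 comparisons were adjusted by Benjamini-Hochberg. Background on an array is the 95th percentile of 27 bacterial control probe sets (17.5 to 51.5 signal units). The number of arrays limits the precision. No 2 arrays held the same values.

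All 35 genes are named, with up to 3 genes of each related list, those with the largest change among the called, and Cdkn1a, Cdh5, Mki67, Klf1 and Ptprc. The members and lists were chosen with earlier results of these data known. The tests were checked on simulated data. Promoters are RefSeq's (GRCm38.p6). Those of Slc7a5, Manf, Atf6 and Hyou1 were not used here. Alternatives covered the scaling, pseudocount, dim genes, probe sets, variance model, samples fitted, threshold, RNA quality, replicate block and each array left out.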

Additional observations from a re-analysis of the deposited data

Results flagged for a closer look

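On 6 of 140 groups of 5 arrays, 1 array stood farther from the others than Dixon's 95% limit allows, where chance alone flags about 1 in 20 groups. Atf5 read 202 in 6-hour replicate 3, against 1207 to 1286 in the other 4. Hsp90b1 read 8209 in 6-hour replicate 4, against 9591 to 10026, and Pdia4 read 2735 in 6-hour replicate 5, against 1568 to 1835. At 24 hours Hspa5 read 11568 in replicate 3, against 9896 to 10341, and Sel1l read 1981 in replicate 5, against 2302 to 2425. At day 14 Ppp1r15a read 1348 in replicate 2, against 1682 to 1819.

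In 5 genes, changes that were called in opposite directions against the controls also differed in limma's direct comparison of the 2 times. From 6 to 24 hours Atf4 differed by -0.69 on its brightest probe set, and Ppp1r15a by -1.21. From 24 hours to day 14 Ppp1r15a differed by 1.24, Asns by 2.93, Shmt2 by 1.41 and Slc7a5 by 2.19.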

How the results depend on the processing

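The counts of called genes stayed within 1.5 times of the main count in all but 6 cases under the 33 alternatives. At 6 hours, centring gave 20 and fitting only the 2 groups 8, against 13. At day 14, centring gave 33, an adjusted p under 0.01 gave 12 and the 3' minus 5' covariate 9, against 20. From 6 to 24 hours that covariate gave 8, against 21. Against the controls it lost the 6-hour calls of Hsp90b1, Pdia3 and Manf. It also lost the 24-hour calls of Atf4, Atf5, Shmt2, Slc7a5, Hspa5, Canx and Sel1l. At day 14 it lost those of Atf4, Ppp1r15a, Phgdh, Shmt2, Ern1, Calr, Canx, Dnajb11, Creld2 and Edem1, besides Atf5, which turned. Leaving out 1 array gave 11 to 14 at 6 hours, 20 to 22 at 24 hours, 14 to 20 at day 14, 17 to 21 from 6 to 24 hours and 21 to 23 from 24 hours to day 14. Fitting the replicate number as a block (replicate block) gave 14, 22, 20, 20 and 21. Same-numbered arrays correlated at -0.067 to 0.037 in their deviations, and 0, 0 and 2 of 5 correlated best with their own number at 6 hours, 24 hours and day 14, so the numbers do not pair the samples.

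Over genes and comparisons, 5373 values stayed on their side of the threshold, uncalled values of either sign among them, 246 lost the call, 97 gained one and 54 turned while called on at least 1 side. The cause of the turns was not tested. Of the calls against the controls, 3 of 13 at 6 hours were kept in all alternatives. At 24 hours 10 of 22 were kept, and at day 14 6 of 20. Centring turned Atf4 (0.032) and Slc3a2 (0.35) at 24 hours. At day 14 it turned Atf4 (0.60), Atf6 (0.80), Ern1 (0.0080), Dnajb9 (0.70), Edem1 (0.52) and Syvn1 (0.72). From 24 hours to day 14 it turned Hspa5 (0.29), Hsp90b1 (0.11), Pdia3 (0.13), Calr (0.33), Dnajb9 (0.050), Dnajb11 (0.39), Dnajc3 (0.050), Creld2 (0.025), Manf (0.33), Herpud1 (0.46) and Syvn1 (0.46). The covariate turned Atf5 at day 14 (-0.32) and from 6 to 24 hours (-0.71), and the low 6-hour array of Atf5 had the largest 3' minus 5' value. Averaging probe sets turned Pdia3 at 6 hours (-0.38), Atf4 at 24 hours (0.17) and, at day 14, Atf4 (0.059), Ddit3 (-0.69), Pdia3 (-0.12) and Pdia6 (-0.31). Without cross-hybridizing probe sets Atf4 turned at 24 hours (0.21) and day 14 (0.34), and from 6 to 24 hours Shmt2 (0.63) and Hspa5 (-0.23). The most different probe set turned Hspa5 (-0.21), Pdia3 (-1.01), Pdia4 (-0.63), Canx (0.92) and Hyou1 (-0.11) at 6 hours, and Atf4 (0.64), Atf6 (0.49), Pdia4 (-1.17) and Pdia6 (-0.051) at 24 hours. At day 14 it turned Atf4 (0.34), Ddit3 (-1.43), Phgdh (-0.26), Pdia3 (-0.53), Pdia4 (-0.39) and Pdia6 (-1.32). From 6 to 24 hours it turned Atf4 (0.071), Shmt2 (0.63), Xbp1 (0.045), Hsp90b1 (-0.066), Pdia4 (-0.54), Pdia6 (-0.035) and Canx (-0.13), and from 24 hours to day 14 Pdia4 (0.78). Some of these probe sets lie near background, where a difference is poorly measured. The report's fold changes depend on the arrays' common trimmed mean.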
